A study of Homo sapiens with 41 samples.

Results

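The 9 heat shock chaperone genes examined were HSPA1A, HSPA1B, HSPA5, HSPA8, HSP90AA1, HSPB1, HSPH1, DNAJB1 and BAG3, taken by name from the 19970 protein-coding genes of the RefSeq annotation on chromosomes 1 to 22 and X. For each gene, the share of its hg38 span inside RNA polymerase II (Pol II) regions was measured in 4 libraries, and peaks of CTCF and of the cohesin subunit RAD21 in the span or within 10 kb of it were counted in 25 libraries. All libraries came from T47D, a human cell line established from a luminal breast carcinoma, kept in every group in steroid-depleted medium and then overnight without serum. The stressed cells received NaCl, which makes the medium hypertonic, at 110 mM by the titles and 100 mM by the design text of the series, and the unstressed cells received none.

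Pol II was mapped after 1 h of NaCl (2 libraries) and without stress (2 libraries). For CTCF there were 3 libraries without stress, 2 after 7.5 min, 1 after 30 min and 3 after 1 h of NaCl, and 1 library after 1 h of NaCl followed by 60 min of recovery in isotonic medium. RAD21 was mapped without stress, at 1 h and in recovery (3 libraries each). Cells pre-treated with 500 nM triptolide for 2 h, an inhibitor of transcription initiation, gave 1 library per protein without stress, at 1 h and in recovery. The third library of each CTCF and RAD21 group, the CTCF recovery library and the 6 triptolide libraries came from a second submission (set 2), in which the triptolide entry of the labels contradicted the title in 6 of 12 libraries, and titles were followed. Nothing in the labels says that libraries of a group came from separate cultures, so the spread between them may be technical.

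Cells meet unfolded proteins with chaperones that bind exposed hydrophobic stretches and let the protein fold. HSP70 proteins do this in cycles of ATP hydrolysis, which J-domain proteins such as DNAJB1 start and nucleotide exchange factors such as HSPH1 and BAG3 end, while HSP90 takes over later folding steps and small heat shock proteins such as HSPB1 hold aggregating proteins. Heat shock factor 1 (HSF1), as a trimer, switches on the inducible genes through heat shock elements, which are inverted repeats of the unit GAA.

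Promoters of 5 chosen genes are shown so that matches to inverted GAA units can be read beside their Pol II coverage. Whether HSF1 binds these matches was not tested. Each covers 250 bases before to 50 bases after a start in RefSeq (GRCh38.p14), read 5′ to 3′ on the gene's strand, and capitals mark matches of GAANNTTC or TTCNNGAA, both of which read the same on the other strand, so neighbouring matches may overlap. The windows are chr11:123062087-123062386 (minus strand) for HSPA8, chr14:102086995-102087294 (minus) for the inner start of HSP90AA1, chr19:14518348-14518647 (minus) for the middle of 3 starts of DNAJB1, chr6:31815293-31815592 (plus) for HSPA1A and chr6:31827488-31827787 (plus) for HSPA1B.
HSPA8: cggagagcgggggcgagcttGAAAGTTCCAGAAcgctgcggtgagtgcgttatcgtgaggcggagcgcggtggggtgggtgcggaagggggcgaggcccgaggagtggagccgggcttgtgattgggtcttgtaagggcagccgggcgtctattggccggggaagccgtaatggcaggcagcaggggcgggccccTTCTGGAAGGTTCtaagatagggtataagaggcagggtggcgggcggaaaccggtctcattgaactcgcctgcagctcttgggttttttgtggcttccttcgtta
HSP90AA1: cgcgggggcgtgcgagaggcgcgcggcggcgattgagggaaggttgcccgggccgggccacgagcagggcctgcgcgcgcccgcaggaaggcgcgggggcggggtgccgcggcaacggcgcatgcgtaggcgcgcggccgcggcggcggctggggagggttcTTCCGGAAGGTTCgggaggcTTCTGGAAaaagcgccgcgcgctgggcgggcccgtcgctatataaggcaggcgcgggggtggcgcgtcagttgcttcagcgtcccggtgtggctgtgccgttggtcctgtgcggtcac
DNAJB1: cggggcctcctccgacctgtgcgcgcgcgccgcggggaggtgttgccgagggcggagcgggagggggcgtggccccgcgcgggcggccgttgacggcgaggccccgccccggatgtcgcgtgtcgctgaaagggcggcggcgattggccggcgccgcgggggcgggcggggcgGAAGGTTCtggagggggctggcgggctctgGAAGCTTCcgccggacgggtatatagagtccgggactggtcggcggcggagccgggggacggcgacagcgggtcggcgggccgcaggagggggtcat
HSPA1A: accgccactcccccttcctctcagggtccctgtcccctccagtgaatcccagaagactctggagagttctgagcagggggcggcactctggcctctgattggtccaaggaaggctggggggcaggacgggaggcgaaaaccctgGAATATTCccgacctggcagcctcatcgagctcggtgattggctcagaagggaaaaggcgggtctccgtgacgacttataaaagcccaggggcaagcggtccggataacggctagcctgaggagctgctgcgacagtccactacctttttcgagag
HSPA1B: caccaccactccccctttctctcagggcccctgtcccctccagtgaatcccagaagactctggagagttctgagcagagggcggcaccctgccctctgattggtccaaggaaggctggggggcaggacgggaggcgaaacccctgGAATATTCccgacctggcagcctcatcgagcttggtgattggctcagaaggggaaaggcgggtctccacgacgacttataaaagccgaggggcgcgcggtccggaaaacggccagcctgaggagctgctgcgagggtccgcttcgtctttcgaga
The HSPA8 window held 4 matches in 2 overlapping pairs, the HSP90AA1 window 3 and the DNAJB1 window 2. HSPA1A and HSPA1B held 1 match each, and their windows were identical at 277 of 299 aligned bases. Of 35116 RefSeq promoter windows of the same length, 13.5% held at least 1 match of either motif, 1.71% held 2 or more and 0.194% held 3 or more. The HSPB1 window also held 1 match, as did that of the innermost DNAJB1 start, and the windows of HSPA5, HSPH1 and BAG3 and of the outermost HSP90AA1 and DNAJB1 starts held none of these letters. Matches and coverage did not always go together: the HSPB1 window was outside Pol II regions in both 1 h libraries, and the HSPH1 window was fully inside them in every library.

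The Pol II lists held 107396 and 216968 regions at 1 h of NaCl and 105302 and 88046 without stress, covering 212 and 262 Mb and 292 and 257 Mb. A deposited −log10 q under 1.3 was found for 80.0 and 92.4% of the regions at 1 h and for 50.0 and 48.5% without stress. The depth of the libraries is unknown, because the lists give no read totals. Luminal genes gave a check of the cell type. The median of 10 such genes had 13.3 and 62.6% of the span inside Pol II regions at 1 h and 85.4 and 84.2% without stress, KRT19 and XBP1 were covered throughout in all 4 libraries, and KRT18 was uncovered in all of them. The median of 12 markers of other lineages was 1.45 and 4.44% at 1 h and 2.09 and 1.49% without stress, with NEUROD1, MYH7 and DES uncovered in all 4 libraries.

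Pol II coverage at 1 h did not move the same way across the 9 genes. HSPH1 gained coverage along most of its span, HSPB1, DNAJB1 and BAG3 lost it, and HSPA8 was covered from end to end in every library. In the other 4 genes the groups overlapped. These calls depend on regions of low score: of regions with a deposited −log10 q of at least 1.3, the HSPH1 difference turned to -4.86 percentage points, those of HSPB1 and BAG3 were 0 and -6.22 with overlapping groups, and DNAJB1 was still lower, with HSP90AA1 in addition. Among these regions 28.7% of all protein-coding genes had a lower span coverage. Beyond the gene ends the genes also differed: the reach of the Pol II region rose in 4, fell in 1 (HSPB1) and overlapped in 4. At HSPA8, HSP90AA1, HSPH1 and DNAJB1 the region that held the gene end ran 13.5 to 137 kb past it at 1 h. Without stress this reach was 0 to 11.6 kb. These rises also depend on regions of low score: with −log10 q of at least 1.3 none of the 4 was higher, and HSP90AA1 and DNAJB1 were lower, as were 11.5% of all genes with a known strand.

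A gene was called where both 1 h libraries lay above, or both below, both unstressed libraries. By this rule 3 of 9 spans fell, against 35.2% of all protein-coding genes, and 1 of 9 rose, against 16.1%. Of the 7 genes with some coverage in both unstressed libraries the same 3 fell, against 51.6% of such genes. Shares this close to those of all genes do not set the chaperone genes apart, and the median change of the span was -2.96 percentage points for the 9 genes and -1.61 for all genes. The counts rest partly on single libraries: without 1 h replicate 1, 5 spans fell, and without 1 h replicate 2, 2 spans rose. Leaving out a library loosens the rule for every gene, so the shares of all genes above do not apply to these counts. With 2 libraries against 2, an exact 2-sided permutation test of a gene cannot go below p = 0.333, the value reached by each called gene.

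**Figure D1:**
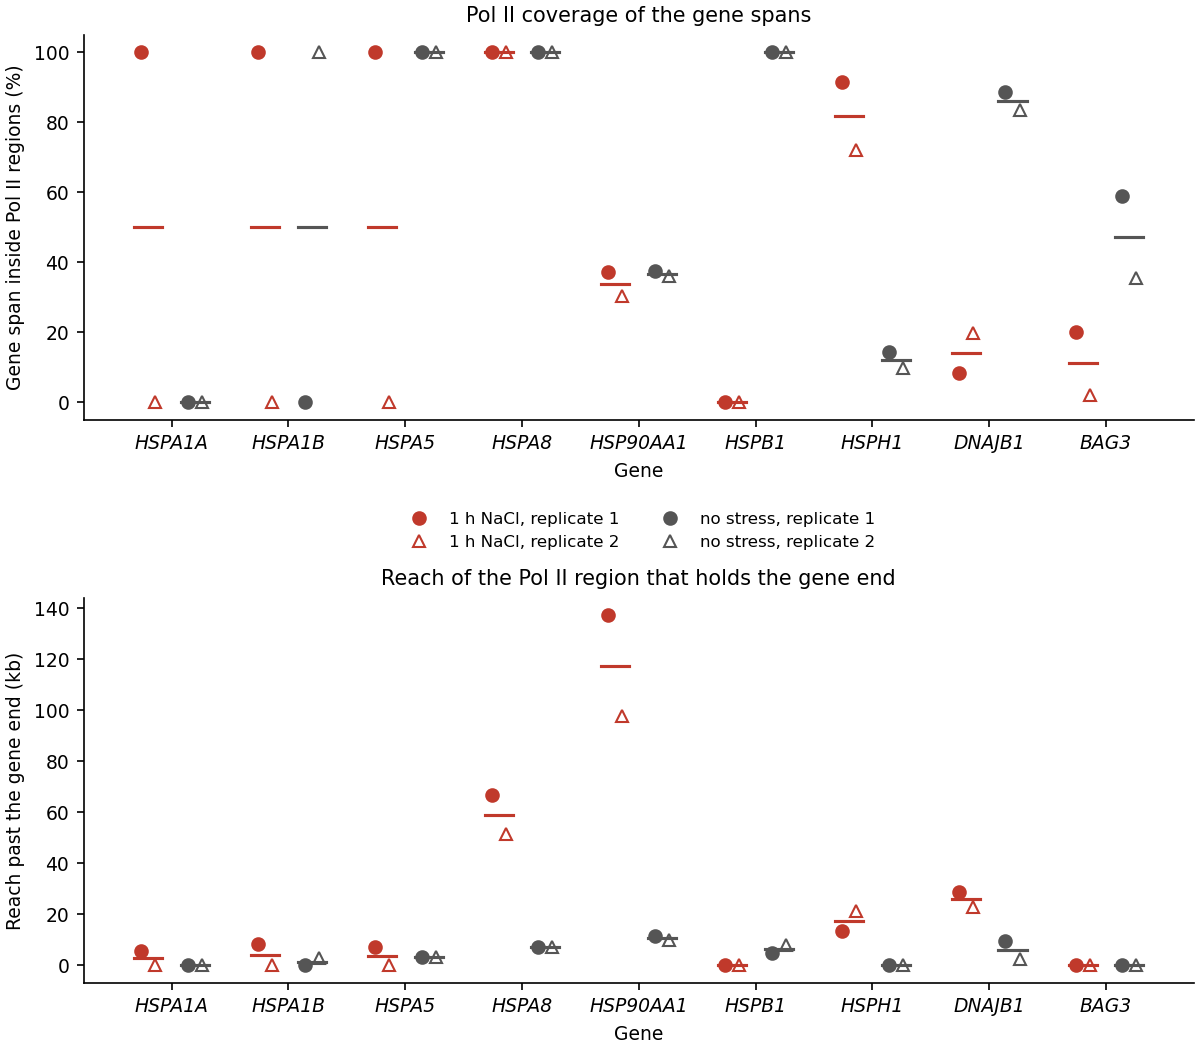
Share of each gene's span inside Pol II regions (upper panel, percent) and reach of the Pol II region past the gene end (lower panel, kb) in the 2 libraries at 1 h of NaCl (red) and the 2 libraries without stress (grey); lines are means. HSPH1 lies higher and HSPB1, DNAJB1 and BAG3 lower at 1 h in the upper panel, and HSPA8, HSP90AA1, HSPH1 and DNAJB1 stand apart in the lower panel.

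HSPA8 (chr11:123057489-123062462, minus strand) encodes the constitutive cytosolic HSP70. Its span was 100% covered in all 4 libraries, and so was its promoter window. The region holding the gene end reached 66.6 and 51.6 kb past it at 1 h, against 7.32 and 7.23 kb without stress. The groups lay far apart, with means of 59.1 ± 10.7 kb at 1 h and 7.28 ± 0.07 kb without stress (SD, n = 2 each). The 51.6 kb past the gene end that both 1 h libraries covered as 1 region were 24.3 and 20.2% covered without stress, in 5 and 4 separate regions, and hold no other protein-coding gene. Coverage fell on the other side: the 10 kb before the gene start were 18.9 and 25.3% covered at 1 h, against 88.0 and 89.5% without stress.

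HSP90AA1 (chr14:102080742-102139749, minus) encodes the stress-inducible HSP90 and has a distant outer start and an inner start near its promoter matches. The stretch of 6.30 kb from the inner start to the gene end was fully covered in all 4 libraries. The rest of the span was 29.8 and 22.0% covered at 1 h, against 29.9 and 28.5% without stress, and the groups overlap. Past the gene end the region reached 137 and 97.7 kb at 1 h, against 11.6 and 9.91 kb without stress, the 16th largest increase among 15811 genes with a known strand. Here the difference lay in joining more than in coverage: the 97.7 kb shared by both 1 h libraries were already 86.0 and 89.7% covered without stress, in 6 regions in each library. This stretch runs into DYNC1H1, the heavy chain gene of cytoplasmic dynein, which is transcribed toward HSP90AA1. The 24.3 kb between the ends of these genes were 100% covered in both 1 h libraries, against 67.5 and 70.4% without stress, and which gene the polymerase there belongs to was not tested.

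HSPH1 (chr13:31134973-31162388, minus) encodes HSP110, a large HSP70 relative that exchanges the nucleotide of HSP70. Its span was 91.5 and 72.1% covered at 1 h, against 14.3 and 9.71% without stress. This was the only span of the 9 that rose under the rule, and among regions with −log10 q of at least 1.3 it was 0% covered in both 1 h libraries, against 0 and 9.71% without stress. Without stress the coverage sat at the front of the gene: the first 6.85 kb of the span were 100% covered in both 1 h libraries, against 49.9 and 38.9% without stress, and the next 6.85 kb were 99.1 and 100% covered, against 0 and 0%. The last 6.85 kb were 83.4 and 9.86% covered at 1 h, and uncovered in both unstressed libraries. The 10 kb past the gene end were 100% covered in both 1 h libraries, against 37.3 and 0%, and the region at the gene end reached 13.5 and 21.5 kb past it, while no region held the gene end without stress. HSPH1 was also the only one of the 9 whose region reached farther before the gene start in both 1 h libraries, by 1.05 and 3.42 kb against 0.904 and 0.977 kb, as in 5.17% of all genes.

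DNAJB1 (chr19:14514769-14560391, minus) encodes a J-domain protein that starts the HSP70 cycle. Its span was 8.44 and 19.6% covered at 1 h, against 88.8 and 83.6% without stress. The fall lay outside the short transcripts: the 3.63 kb from the middle start to the gene end were fully covered in all 4 libraries. The 32.7 kb that the span shares with TECR, a fatty acid elongation enzyme gene on the other strand, were 0 and 11.7% covered at 1 h, against 97.8 and 94.8% without stress. Past the gene end the region reached 29.0 and 22.8 kb at 1 h, against 9.44 and 2.60 kb without stress. The 18.6 kb between DNAJB1 and the next gene, GIPC1, on the same strand, were 100% covered in both 1 h libraries, against 62.8 and 41.5%.

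**Figure D2:**
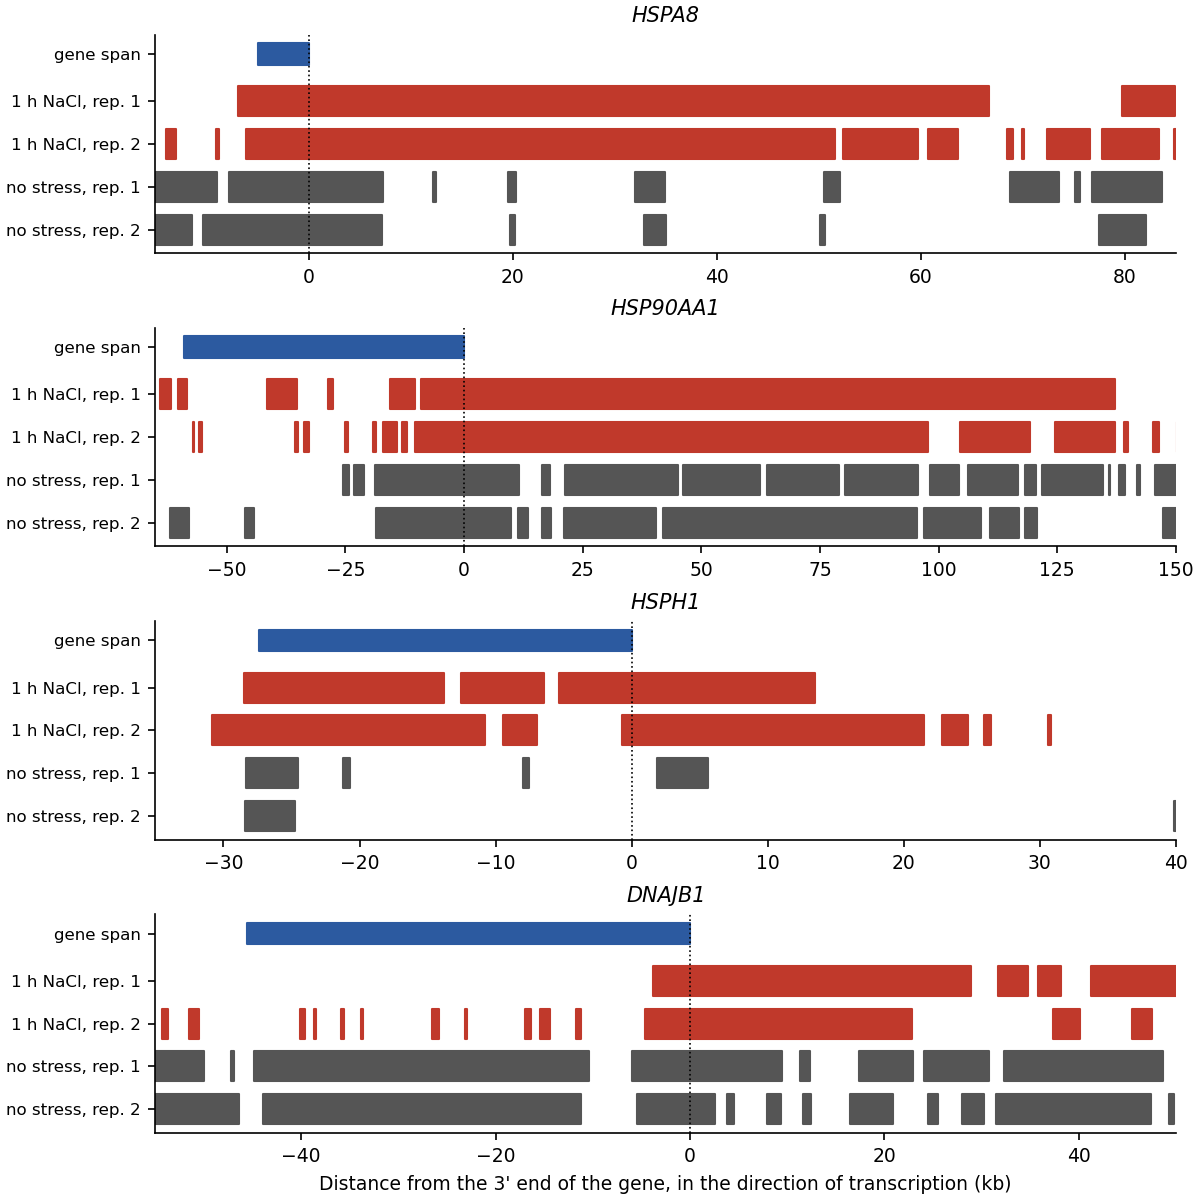
Pol II regions around the 3′ ends of HSPA8, HSP90AA1, HSPH1 and DNAJB1 in the 2 libraries at 1 h of NaCl (red) and the 2 libraries without stress (grey), by distance from the gene end in the direction of transcription (kb); blue bars are gene spans. In both 1 h libraries a single region crosses each gene end, and without stress the stretch past it is split into up to 6 regions.

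The lengthening past the gene end held for 4 of 9 chaperone genes, against 3.43% of the 15811 genes with a known strand. For 3 of them (HSPA8, HSP90AA1 and DNAJB1) the reach was at least 20 kb in both 1 h libraries and in no unstressed library, as for 0.866% of genes. The gene end had to lie in a region for any reach to be measured. Of the 5 chaperone genes whose end lay in a region in both unstressed libraries, 3 had a longer reach at 1 h, against 4.76% of such genes. A longer reach at 1 h requires the gene end to lie in a region in both 1 h libraries. The 4 chaperone genes that met this were the same 4, and 48.5% of all such genes had a longer reach. Genes are selected here through the 1 h libraries themselves, so this count adds nothing to the 4 of 9. Coverage of the 10 kb past the gene end rose for 3 genes (HSPA8, HSPH1 and DNAJB1), against 11% of all genes. Without 1 h replicate 2 the count of longer reaches was 7 of 9, since HSPA1A, HSPA1B and HSPA5 had a reach of 5.68 to 8.49 kb at 1 h in replicate 1 and of 0 in replicate 2. This looser rule admits more of all genes too, so the 3.43% does not apply to that count. The 1 h regions behind the 4 longer reaches carry low scores of the authors' caller, with a deposited −log10 q of 0.003 to 0.839 except for HSPA8 in 1 h replicate 2 (7.44). Their deposited fold enrichment, a ratio to the caller's background, was mostly near 1. In 1 h replicates 1 and 2 it was 1.01 and 1.02 at HSP90AA1, 1.02 and 1.00 at HSPH1, 1.12 and 1.02 at DNAJB1, and 1.27 and 2.51 at HSPA8. Of regions with −log10 q of at least 1.3, none of the 9 genes had a longer reach in both 1 h libraries, against 0.310% of all genes. For HSP90AA1 and DNAJB1 the direction then turned: HSP90AA1 had a reach of 0 kb in both 1 h libraries, against 11.6 and 9.91 kb without stress, and DNAJB1 0 kb in both, against 9.44 and 2.60 kb. HSPA8 then reached 0 and 51.6 kb at 1 h, against 7.32 and 0 kb, and HSPH1 had no reach in any library.

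**Figure D3:**
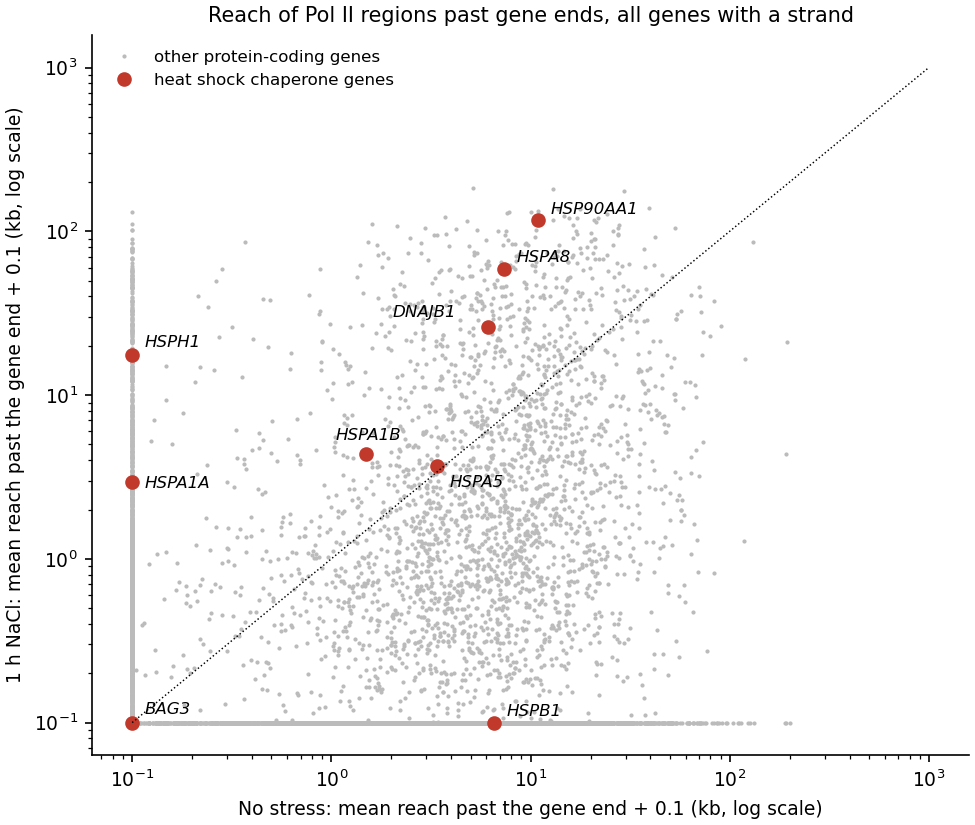
Mean reach of the Pol II region past the gene end at 1 h of NaCl (vertical) against no stress (horizontal), in kb plus 0.1 on log scales, for 15811 genes (grey) and the 9 chaperone genes (red); the dotted line marks equal reach. HSP90AA1, HSPA8, DNAJB1 and HSPH1 lie above the line at means of 117, 59.1, 25.9 and 17.5 kb at 1 h, and HSPB1 lies on the lower edge, with no reach at 1 h.

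HSPB1 (chr7:76302673-76304292, plus) encodes the small heat shock protein HSP27. Its span was uncovered in both 1 h libraries and fully covered in both unstressed libraries. The promoter window followed it, and the region past the gene end, 4.85 and 8.05 kb long without stress, was absent at 1 h. Both unstressed regions had a deposited −log10 q under 1.3 (0.697 and 0.401), so among regions above that value HSPB1 has neither coverage nor reach in any library.

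BAG3 (chr10:119651380-119677819, plus) encodes a nucleotide exchange factor of HSP70 that also sends clients to autophagy. Its span was 20.1 and 2.09% covered at 1 h, against 59.0 and 35.4% without stress. The loss was complete at the front: the first 6.61 kb of the span were uncovered in both 1 h libraries, against 56.8 and 100%, and the promoter window was uncovered at 1 h and fully covered without stress. Among the 12 promoter windows of the 9 genes, 9 were fully covered in both unstressed libraries, and the 2 of these that were uncovered in both 1 h libraries were those of BAG3 and HSPB1, against 32% of such windows over all genes. Among regions with −log10 q of at least 1.3, the BAG3 span was uncovered in both 1 h libraries, against 12.4 and 0% without stress, where the groups overlap.

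HSPA5 (chr9:125234853-125241343, minus) encodes BiP, the HSP70 of the endoplasmic reticulum. Its span was 100 and 0% covered at 1 h and 100% covered in both unstressed libraries, so the 1 h libraries went apart. The region at its gene end had a fold enrichment of 2.24 in 1 h replicate 1, against 2.50 and 2.08 without stress, in the authors' lists. The neighbour RABEPK, within 10 kb, fell to 35.9 and 4.80% at 1 h, against 80.8 and 68.9% without stress.

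HSPA1A (chr6:31815543-31817942, plus) and HSPA1B (chr6:31827738-31830254, plus) encode the heat-inducible HSP70 and lie 9.80 kb apart. HSPA1A was 100 and 0% covered at 1 h and uncovered in both unstressed libraries. HSPA1B was 100 and 0% covered at 1 h, against 0 and 100% without stress. The replicates thus differed within each group, and neither gene was called. Reads from these near-identical genes could be assigned to either, and the lists also place 238 and 326 regions at 1 h and 544 and 584 without stress on alternate contigs of chromosome 6, so values of this pair are uncertain. The neighbours LSM2 and HSPA1L were at or near 0: LSM2 was uncovered in all 4 libraries, and HSPA1L was 8.93 and 0% covered at 1 h and uncovered without stress.

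Over both 10 kb flanks together, 4 of 9 genes fell (HSPA5, HSPA8, HSPB1 and DNAJB1), against 39.4% of all genes, and HSPH1 alone rose, against 14.2%. Without 1 h replicate 2, 4 genes rose, under a rule that is then looser for all genes, so the 14.2% does not apply. For DNAJB1 the direction depends on the genes in its flanks: with bases of other protein-coding genes left out, its flanks were 99.0 and 100% covered at 1 h, against 94.5 and 47.6% without stress, and so rose. The other neighbours moved in both directions. NDUFB7, a subunit gene of respiratory complex I beside DNAJB1, was 0 and 15.6% covered at 1 h, against 100% in both unstressed libraries. CLMP, a cell adhesion gene beside HSPA8, was 16.2 and 22.2% covered at 1 h, against 8.57 and 10.7%, and WDR20, beside HSP90AA1, was 32.3 and 28.2% covered, against 6.89 and 54.4%, where the groups overlap.

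Of 64 other genes of the chaperone system, 63 were in the annotation. By the same rule 28 of them fell, against 35.2% of all genes, 3 rose, against 16.1%, and 32 had overlapping groups, with a median change of -21.4 percentage points. A fall needs some coverage in both unstressed libraries, which 50 of the 63 had. Of these 50 the same 28 fell, against 51.6% of all genes with such coverage. Of the 8 subunits of TRiC, the ring-shaped chaperonin that folds actin and tubulin, 7 fell, and so did 5 of 8 other J-domain proteins, 5 of 11 endoplasmic reticulum chaperones and 4 of 6 mitochondrial chaperones. Genes with coverage in both unstressed libraries numbered 7, 7, 9 and 6 in these lists, in this order. Falls were found in 3 of 7 other HSP70 and HSP110 genes, 2 of 8 genes of HSP90 and its co-chaperones, 2 of 6 other exchange and ligase partners of HSP70 and 0 of 6 other small heat shock proteins. The largest falls were in PTGES3, the HSP90 co-chaperone p23, with 0.822 and 16.8% at 1 h, against 100% in both unstressed libraries, in HSPA13, with 0 and 19.0% against 100%, and in DNAJB5, with 0 and 4.16% against 85.3 and 83.9%. The rises were in HSPB8, a small heat shock protein that works with BAG3, with 100 and 88.0% at 1 h, against 19.9 and 19.4%, in DNAJA1, a J-domain protein, with 100% in both 1 h libraries, against 88.7 and 65.0%, and in HSPBP1, with 6.45 and 9.39%, against 5.70 and 4.16%. None of the 3 heat shock factor genes was called. The reach past the gene end could be measured in 55 of these genes and rose in 5, against 3.43% of all genes with a known strand. They are named here after their values were seen. HSP90AB1, the constitutive HSP90, reached 21.8 and 19.2 kb at 1 h, against 4.42 and 4.41 kb, and was fully covered in all 4 libraries. TRAP1, the mitochondrial HSP90, reached 115 and 104 kb, against 16.2 and 16.3 kb, and CALR, a chaperone of the endoplasmic reticulum, 57.5 and 45.6 kb, against 13.3 kb in both unstressed libraries. DNAJA1 and HSPB8 were the other two.

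CTCF, which binds DNA and stops cohesin, was found at 19 sites in or within 10 kb of the 9 genes when overlapping peaks of all 13 lists were merged. Of these, 5 were in every list, 7 in all 3 unstressed lists, 10 in some of these and 2 in none of them. Of the 7 sites shared by all unstressed lists, 5 were kept in all 3 lists at 1 h, against 58.8% of such sites near all protein-coding genes, and 0 were absent from all 3, against 5.77%. The 5 sites kept throughout lay past the ends of BAG3 (8.73 kb), HSPA8 (2.99 kb), HSPB1 (10.1 kb) and DNAJB1 (9.18 kb), and inside the DNAJB1 span within TECR, 3.63 kb from the outer edge of the span. The remaining 2 were missing from 1 h replicate 3: the site in HSP90AA1 15.9 kb before the gene end, and a site in the DNAJB1 span 8.84 kb from its outer edge.

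The HSPA8 site (chr11:123054117-123054890) lies inside the stretch that Pol II covered as 1 region at 1 h. Its fold enrichment stood at the 69.3, 81.0 and 22.9 percentile of the lists at 1 h and at the 66.7, 67.3 and 32.8 percentile without stress, in replicates 1 to 3 of each. The lists differ in length, so no change is read from these ranks. Across the stretches past the ends of HSPA8, HSP90AA1 and DNAJB1, 9 CTCF sites were found, 6 of them in all unstressed lists and 4 of these in all lists at 1 h, against 57.1% of such sites over the genome. RAD21 had 7 sites there. Of the 2 in all unstressed lists, 0 were in all lists at 1 h, against 34.5% over the genome: the site 36.3 kb past HSPA8 was in no 1 h list, and that 34.1 kb past HSP90AA1 was in 1 h replicate 2 alone, and in all 3 recovery lists. The HSPH1 stretch held no site of either protein.

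Of 4 CTCF sites within 2 kb of a RefSeq start that were in at least 2 of 3 unstressed lists, 3 were in none of the 6 NaCl lists of 7.5 min to 1 h, against 21.3% of such sites over all genes. Elsewhere in the windows this was 1 of 8 sites, against 20.4%. The 3 start sites were those of HSPA5 (chr9:125240707-125241302), HSPH1 (chr13:31161625-31162145) and BAG3 (chr10:119652429-119652781). Those of HSPA5 and HSPH1 were in unstressed replicates 1 and 3 and in the recovery library, and the BAG3 site was in unstressed replicates 1 and 2 and not in recovery. A neighbouring BAG3 site (chr10:119651460-119652368), nearer the start, had a peak in 1 h replicate 3, unstressed replicate 3 and recovery, so the BAG3 start was not without CTCF peaks in every NaCl list. At HSPA5 the peak stood at the 7.12 and 61.8 percentile of fold enrichment in the unstressed lists and at the 53.4 percentile in recovery. The fourth start site, at the inner start of HSP90AA1 over its promoter matches (chr14:102086576-102087752), was in 1 h replicate 3, in unstressed replicates 1 and 3, and in recovery. With 4 sites these shares are counts of single sites, and the lists differ in length.

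**Figure D4:**
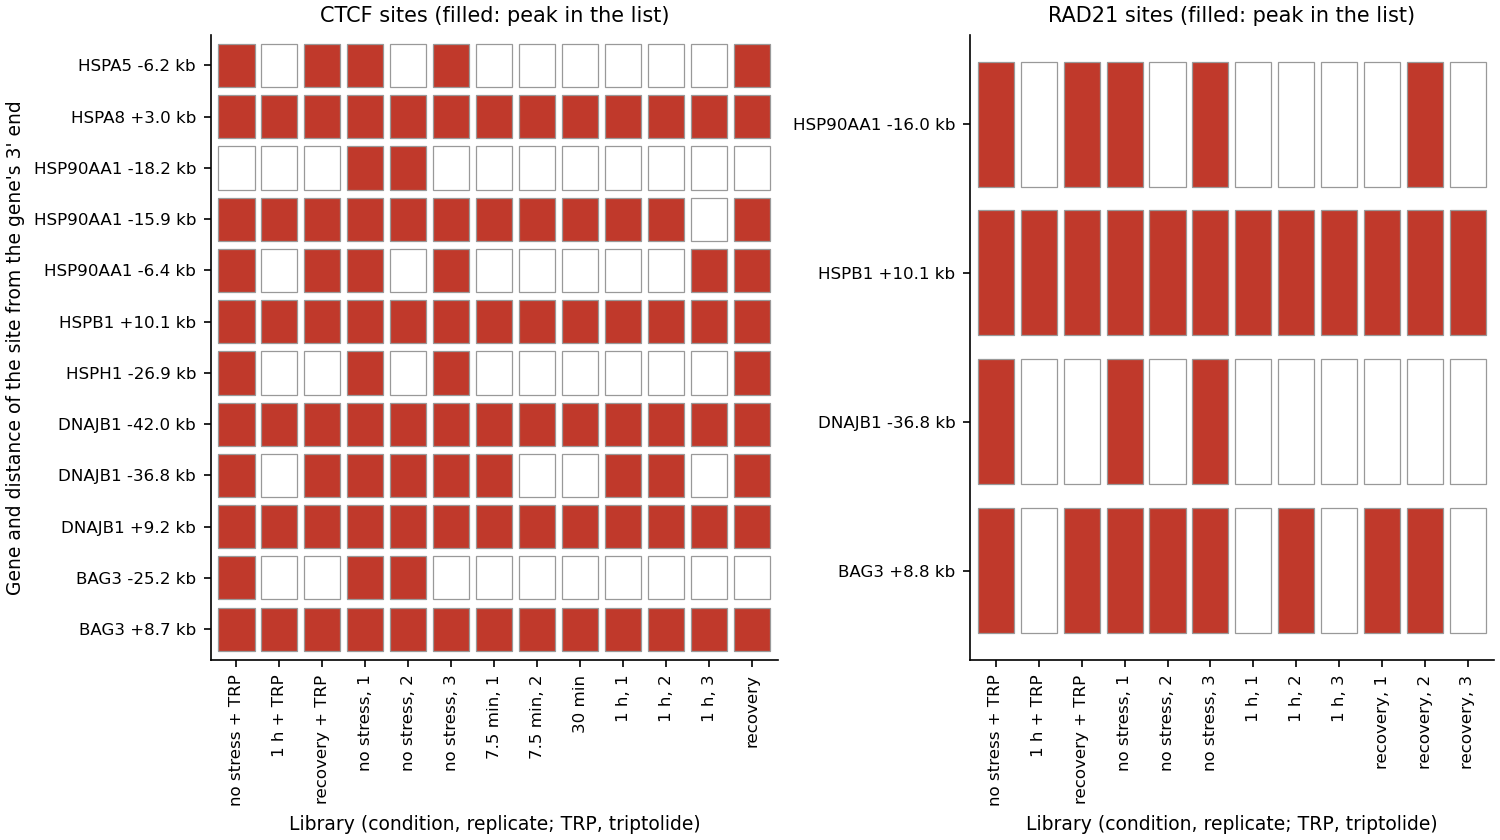
CTCF sites (left) and RAD21 sites (right) near the chaperone genes that had a peak in at least 2 of 3 unstressed libraries, by gene and distance from its 3′ end (kb, rows) and library (columns; TRP, triptolide); filled squares are peaks. The rows of HSPA8, HSPB1 and BAG3 past the gene end are filled in all 13 CTCF libraries, and the HSPB1 row in all 12 RAD21 libraries.

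Peaks near the 9 genes were fewer under stress. CTCF had 7.67 ± 0.58 peaks at 1 h and 12 ± 2.65 without stress (SD, n = 3 each), and the groups did not overlap, with 8, 7 and 8 peaks at 1 h, against 14, 9 and 13. Early in the stress the 7.5 min libraries had 7 and 6 peaks, against 14 and 9 in the unstressed replicates 1 and 2 of the same submission, and the 30 min library had 6. With 3 libraries against 3, groups that do not overlap give p = 0.1 in an exact 2-sided permutation test, the smallest it allows. The lists also shrank, to 22018 to 35374 peaks at 1 h, against 38571 to 59843 without stress. Per 10000 peaks of the list, 2.65 ± 0.86 lay near the chaperone genes at 1 h and 2.59 ± 0.69 without stress. From the 22018 strongest peaks of each list the direction turned, with 1.67 more peaks at 1 h, so the fall moved with the length of the lists. The CTCF recovery library had 16 peaks, against 8 at 1 h in the same submission, from lists of 46377 and 22018 peaks. Per 10000 peaks of the list this was 3.45 in recovery and 3.63 at 1 h, so the rate near these genes was not higher in recovery.

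RAD21 at 1 h was found at the HSPB1 site in every library and, in replicate 2, also at the BAG3 site. There were 1, 2 and 1 RAD21 peaks at 1 h, against 5, 3 and 4 without stress, and the lists held 4761 to 7843 peaks at 1 h, against 13762 to 24931. Per 10000 peaks of the list this was 2.05 ± 0.52 at 1 h and 2.17 ± 0.56 without stress (SD, n = 3 each), and from the 4761 strongest peaks of each list the mean difference of -2.67 peaks became -0.667. The HSPB1 site (chr7:76314021-76314733), 10.1 kb past the gene end at the edge of the window and on a CTCF site, was in all 12 RAD21 lists. It stood at the 82.1, 90.7 and 82.4 percentile of fold enrichment at 1 h and at the 99.8, 98.6 and 99.6 percentile without stress, in lists of such different length that no change is read from these ranks. The site past BAG3 was in all 3 unstressed lists and in 1 h replicate 2 alone. These were the 2 sites shared by all unstressed lists, so 1 of 2 was kept in all 1 h lists, against 32% of such sites near all genes, and 0 of 2 were absent from all of them, against 34.3%. RAD21 at the HSP90AA1 site and at the DNAJB1 site 8.84 kb from the outer edge was in 2 of 3 unstressed lists and in no 1 h list.

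In recovery, RAD21 had 2, 6 and 1 peaks near the chaperone genes, against 1, 2 and 1 at 1 h. The groups overlapped, and the mean difference of 1.67 peaks fell to 0.167 without recovery replicate 2, whose list of 20400 peaks was longer than those of the other recovery libraries (4397 and 6492). The BAG3 site was in recovery replicates 1 and 2, against replicate 2 at 1 h, and the HSP90AA1 site was in recovery replicate 2 and in no 1 h list.

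**Figure D5:**
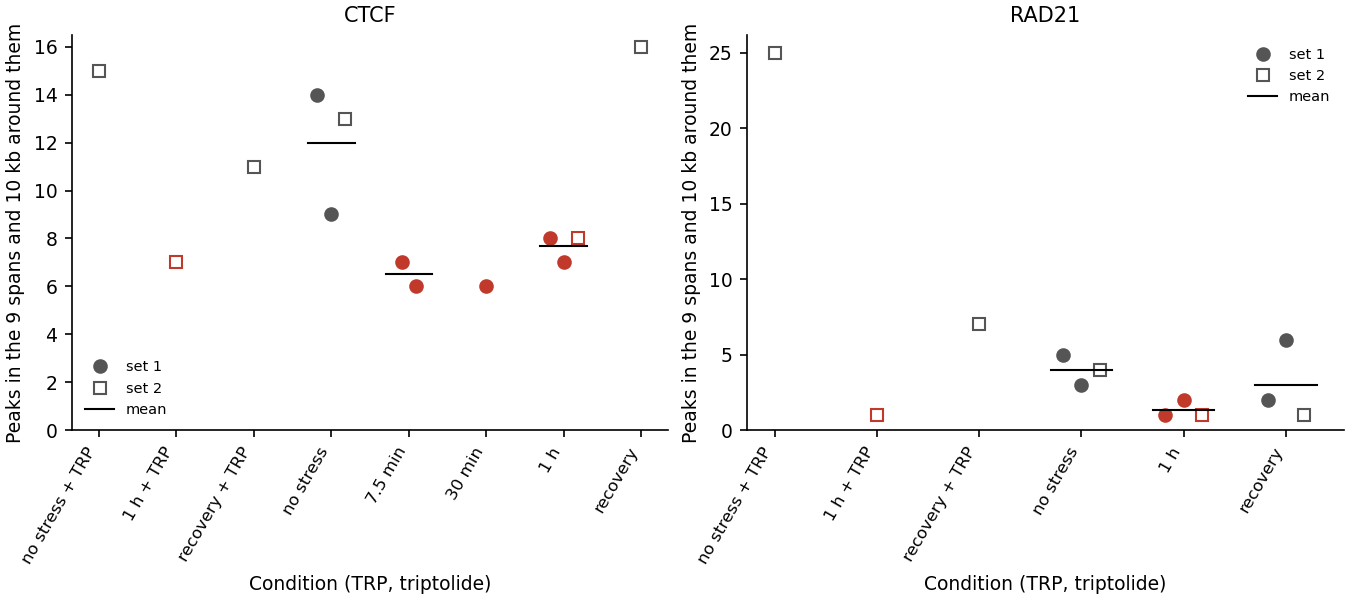
Number of CTCF (left) and RAD21 (right) peaks in the spans of the 9 chaperone genes and 10 kb around them, by condition, with 1 point per library (filled circles, set 1; open squares, set 2; red, cells in NaCl) and means as lines; TRP, triptolide. The unstressed triptolide library of RAD21 stands at 25 peaks, above all other RAD21 libraries.

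Triptolide was compared within set 2, with 1 library per state and so without replicates. CTCF had 15 peaks near the 9 genes with triptolide and 13 without it in unstressed cells, 7 and 8 at 1 h, and 11 and 16 in recovery. In each state the share of peaks that came from the triptolide library had an exact 95% interval, covering counting error only, that held the share of the whole lists: 53.6% (33.9 to 72.5) for unstressed cells, where the lists gave 52.0%. The CTCF sites past HSPA8, BAG3 and HSPB1 had peaks with triptolide in all 3 states.

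RAD21 in unstressed cells had 25 peaks near the chaperone genes with triptolide and 4 without it. The triptolide library gave 86.2% (exact 95% interval 68.3 to 96.1) of these peaks, against 62.2% of all peaks of both lists, which held 40969 and 24931. This interval covers counting error only and treats peaks as independent, though 8 of the 25 lie at HSPB1. With 1 library on each side, it cannot tell an effect of triptolide from a difference between libraries. More peaks with triptolide were found at 8 of 9 genes, all but BAG3, against 49.1% of all protein-coding genes. HSPB1 had 8 peaks with triptolide and 1 without it, and DNAJB1 6 and 1. HSPA1A and HSPA1B, which had no RAD21 peak in any other library, had a peak within each span, with the uncertainty of this pair given above. Of the 26 RAD21 sites, 16 were in this library alone, including sites at the starts of HSPA5, HSPA8 and HSPH1. This is the longest of the 12 RAD21 lists, and the share of sites found in it alone over all genes is not given. The 16 sites are therefore not read as particular to the chaperone genes. From the 24931 strongest peaks of each list the excess shrank to 3 peaks. At 1 h both libraries had 1 peak, the HSPB1 site, and in recovery there were 7 peaks with triptolide and 1 without it, from lists of 22967 and 6492 peaks.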

How the data were processed

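CTCF, RAD21 and Pol II were mapped by chromatin immunoprecipitation sequencing in 29 libraries of T47D cells, each with its own peak list; 12 inputs have none. The submitters' processing notes name Bowtie2 2.2.6, cutadapt, MACS2 and hg38, and for set 1 DiffBind 2.4.6, DESeq2 and HOMER. The sources used here do not give their roles or the caller's threshold and control. The deposited lists give each peak an integer score, a fold enrichment (a ratio to the caller's background), −log10 p and −log10 q. These are the authors' values and were used only within a list.

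Only chromosomes 1 to 22 and X were used, in Python 3.11.15 (scipy 1.17.1 for intervals and permutation tests, pandas 2.3.3, numpy 2.4.6). Gene spans and promoters came from RefSeq GRCh38.p14, and strand from the promoters. Peaks that overlapped by 1 base were merged into a site. The depth of the libraries is unknown, since the lists carry no read totals. No lists were identical (0). Deviations of same-numbered CTCF libraries from the mean of their group correlated at 0.13, 0.38 and 0.35, with numbers taken from the titles. RAD21 (-0.04, 0.16 and 0.09) and Pol II (0.04) were not treated as paired. The computations were tested on simulated intervals.

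The genes and lists were chosen with earlier results of these data known, and the reach past the gene end, the parts of spans, the sites in those stretches and the start sites were added after the data were seen. Named were the 9 genes, neighbours within 10 kb, up to 3 other chaperone genes with the largest fall and rise, and sites shared by all unstressed lists or absent from them.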

Additional observations from a re-analysis of the deposited data

How the results depend on the processing

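Of Pol II regions with −log10 q of at least 1.3, 0 spans, 0 flanks and 0 reaches of the 9 genes rose, and the HSPH1 span difference was -4.86 percentage points. Over all genes 0.971% of spans and 0.310% of reaches then rose. Of these regions 2 spans (HSP90AA1 and DNAJB1) and 3 flanks fell, with span differences of -36.7 for HSP90AA1, -84.0 for DNAJB1, -6.22 for BAG3 and 0 for HSPB1. Of all spans 28.7% then fell, so 2 of 9 does not set the chaperone genes apart. The share of all flanks is not given. With 20 kb flanks 2 flanks fell and 3 rose, and with bases of other genes left out 2 rose. Leaving out 1 library gave 3 to 5 spans that fell, 1 to 2 that rose, 4 to 5 flanks that fell, 1 to 4 that rose and 4 to 7 longer reaches. The shares of all genes under this looser rule are not given. The replicate block gave 4 spans that fell and 1 that rose, 4 flanks that fell and 1 that rose, 4 longer reaches, and mean differences of -4.33 (CTCF, 1 h), -5 (CTCF, 7.5 min), -2.67 (RAD21, 1 h) and 1.67 peaks (RAD21, recovery), and changed 1 call, the HSP90AA1 span, which was lower within both pairs (differences of -0.1 and -5.81 percentage points). The Pol II libraries share only a number.

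With equal numbers of the strongest peaks, the CTCF difference was 1.67 peaks at 1 h and -0.5 at 7.5 min, that of RAD21 -0.667 at 1 h, and that of RAD21 with triptolide in unstressed cells 3, and 0 CTCF sites were kept at 1 h, because 0 were then in all 3 unstressed lists. With a 20 kb window the RAD21 difference at 1 h was -4, and 9 CTCF sites and 2 RAD21 sites were kept. With a 5 kb window 2 CTCF sites and 0 RAD21 sites were kept, and RAD21 with triptolide differed by 0 at 1 h and 5 in recovery. Within set 2, where 1 library stands for each group, 8 CTCF sites were kept, and 5 CTCF and 3 RAD21 sites were absent at 1 h; within set 1, 2 CTCF sites were absent. Leaving out 1 library gave CTCF differences of -5.83 to -3.33 at 1 h and -7.5 to -2.5 at 7.5 min, RAD21 differences of -3.17 to -2.17 at 1 h and 0.167 to 2.67 in recovery, 5 to 7 CTCF and 1 to 1 RAD21 sites kept, and 0 to 2 CTCF and 0 to 2 RAD21 sites absent. The causes were not tested.

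Precision is limited by 2 Pol II libraries per group, unknown depth, lists of unequal length and single libraries with triptolide.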
